A study of Mus musculus with 6 samples.

Results

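The genes described here make, modify, activate, burn and store fatty acids. They are 41 mouse genes, chosen by name for their known part in fatty acid metabolism, with earlier results of these data known. By role, 5 are genes of synthesis, 9 of desaturation and elongation and 4 of activation. Another 13 are genes of mitochondrial import and oxidation and 10 of uptake, storage and release. All 41 were found among the 55487 genes of the count table by symbol, and 40 of them passed the filter on low counts. Cd36 did not pass.

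RNA was sequenced from cells of 4T-1, a mouse mammary carcinoma line, which were either knocked out for Lyplal1 (n = 3 libraries) or wild type (n = 3 libraries). The sample titles name no treatment for either group, and the sample names give the knockout as sg2 and the wild type as NC. The labels do not say whether the knockout cells are a clone or a pool, or whether the libraries of a group are separate cultures. The p-values therefore measure the spread between these libraries, which may be technical.

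Fatty acids are built in the cytosol from acetyl-CoA, with malonyl-CoA as the unit of growth, and are then lengthened and desaturated in the endoplasmic reticulum. To be burned they are tied to coenzyme A, passed into mitochondria as carnitine esters and shortened in repeated rounds of dehydrogenation, hydration, oxidation and thiolysis. Surplus chains are esterified to triglyceride and kept in lipid droplets, from which lipases release them. Many carcinoma cells make their own fatty acids even where fat is supplied, and malonyl-CoA, which feeds synthesis, also blocks entry of chains into mitochondria.

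Total counts ran from 16731209 to 16784906 in knockout libraries and from 17007616 to 17108975 in wild-type libraries. Lyplal1 itself had 54, 48 and 58 counts in knockout libraries, against 76, 73 and 68 counts in wild-type libraries, and its log2 fold change of -0.28 ± 0.15 (SE) did not pass the test (edgeR quasi-likelihood, adjusted p = 0.0886). It was called lower, at -0.41, with upper-quartile factors (edgeR, adjusted p = 0.014) and, at -0.44 and -0.48, on the log2(TPM + 1) and log2(TPM + 0.1) scales (limma, adjusted p = 0.00114 and 0.00148). The position of the edit is not in the labels, so counts over the whole gene do not check it. All 6 epithelial markers were detected in both groups. Their summed level was 3310 to 3420 TPM (transcript counts per gene length, scaled to a common total) in knockout libraries and 7130 to 7309 TPM in wild-type libraries, with 1 marker higher and 5 lower. Markers of lung epithelium were higher in all 3 knockout libraries, and most so in replicate 3. The 5 genes summed to 619, 715 and 2455 counts in the knockout libraries and to 4, 2 and 3 counts in the wild-type libraries. Of these, 3 were called higher (Sftpb, Sftpc and Scgb1a1) and 0 lower. Sftpb had 300, 297 and 479 counts in knockout libraries and 1 count in each wild-type library (edgeR, adjusted p = 2.86e-05). Endothelial markers were also highest in knockout replicate 3, with summed counts of 17, 25 and 103 in knockout libraries and of 4, 3 and 3 in wild-type libraries. Of the 7 adipocyte markers, Adipoq, Lep and Plin1 had 0 counts in all 6 libraries, Fabp4 had 10, 7 and 5 counts in knockout libraries and 2, 4 and 2 counts in wild-type libraries, and Cfd, Cidec and Retn had at most 4 counts in any library. Of the 6 fibroblast markers, Pdgfra rose by 1.39 ± 0.04 on the log2 scale (edgeR, adjusted p = 8.36e-21) and Col1a1 fell by 1.40 ± 0.25 (adjusted p = 3.66e-05). Col3a1 had 6, 3 and 64 counts in knockout libraries, again most in replicate 3, and 0, 0 and 1 counts in wild-type libraries, and the list summed to 2710 to 2880 counts in knockout libraries and to 1200 to 1255 counts in wild-type libraries. Of the 6 leukocyte markers, Cd68 had 7437, 7054 and 7657 counts in knockout libraries and 149, 144 and 142 counts in wild-type libraries, and no other had more than 8 counts in any library.

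In the knockout cells, 4 of 5 genes of fatty acid synthesis and both stearoyl-CoA desaturases were lower, while the long-chain dehydrogenase of mitochondrial oxidation and a droplet coat protein were higher. Of the 4 synthesis genes, Acly fell by only 0.08 ± 0.03 on the log2 scale, a call lost when certain single libraries were left out. Scd1 was 6.98-fold lower and Scd2 was 2.59-fold lower in knockout cells, and Acadl was 4.08-fold higher and Plin2 3.49-fold higher. Of the 40 genes tested, 20 rose, 15 fell and 5 were not called (edgeR quasi-likelihood F test with TMM scaling, Benjamini-Hochberg adjusted p below 0.05 over 13022 genes). That is 87.5% of the tested members, near the background of 82.3% called over all tested genes, where 41.3% of the tested genes were called higher and 40.9% lower. In bulk RNA, fewer cells of one kind and less RNA per cell cannot be told apart. The median log2 fold change of the members was 0.14, against -0.0012 over all genes tested, and the median size of change without regard to sign was 0.44, against 0.57 over all genes. At least 2-fold, 4 members rose (Acadl, Plin2, Acaa1a and Pnpla2) and 4 fell (Scd1, Scd2, Lpin1 and Mgll). The matching shares over all genes were 12.4% for rises and 15.6% for falls. Without knockout replicate 3 the members' counts were 19 higher and 16 lower.

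The zero point of the fold changes depends on the scaling. Relative to TMM, the median over all genes shifted by -0.133 (log2) with upper-quartile factors, by -0.204 with log2(TPM + 1) and by -0.207 with log2(TPM + 0.1). Under RLE factors, upper-quartile factors and both TPM scales, 12 of the 20 rises and all 15 falls kept their call. Over all genes tested, 4078 of 5382 rises and 5322 of 5329 falls kept theirs, so the kept falls do not set the members apart. The balance of rises and falls turned with the scaling: 14 members were higher and 19 lower with upper-quartile factors, and 12 were higher and 19 lower on both TPM scales. The 12 were Elovl1, Elovl7, Acsl5, Cpt2, Acadl, Echs1, Acaa1a, Acaa2, Dgat1, Plin2, Plin3 and Pnpla2.

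**Figure D1:**
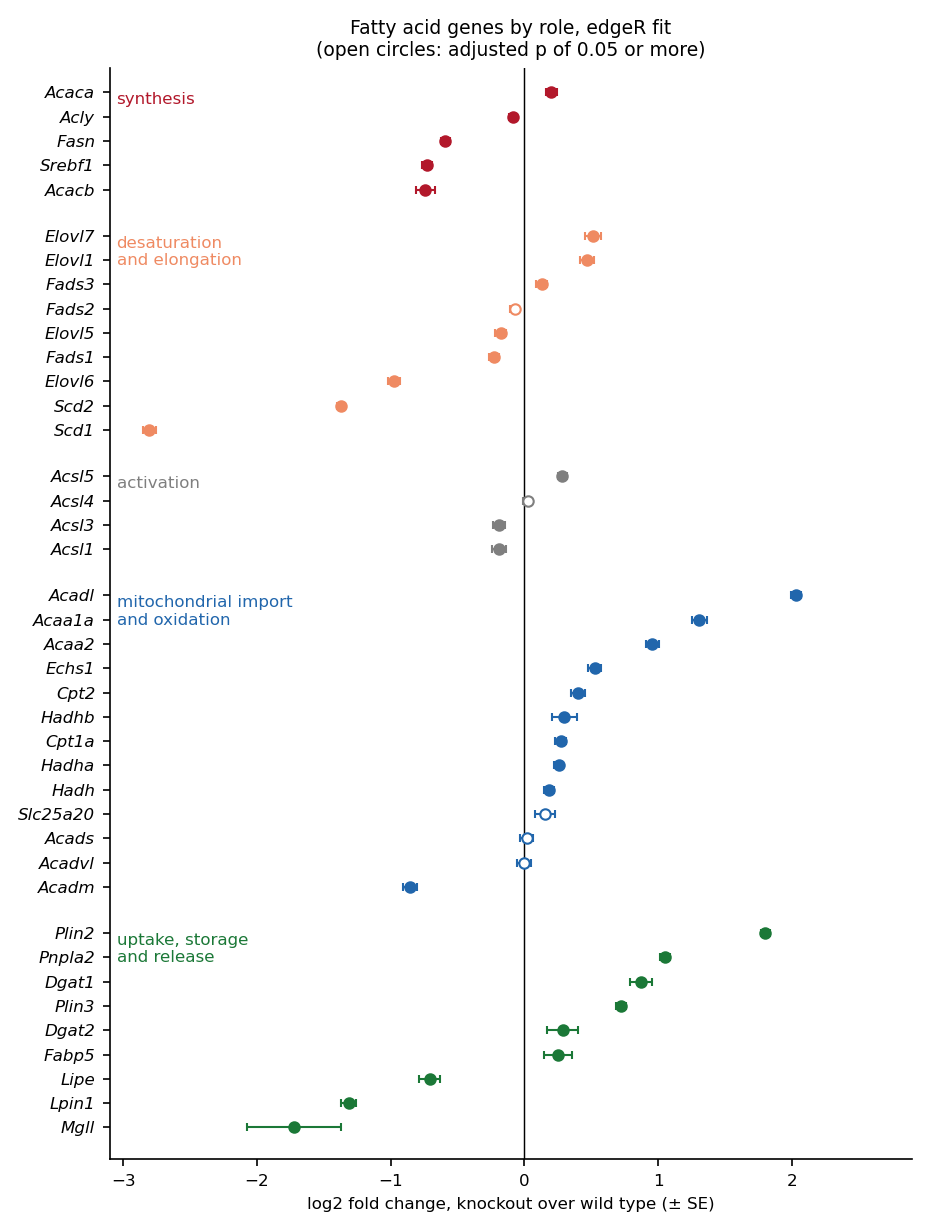
Log2 fold change of each of the 40 tested fatty acid genes, knockout over wild type, from the edgeR fit, with bars of 1 standard error on the horizontal axis and genes grouped by role down the page. Filled circles passed the adjusted p threshold of 0.05 and open circles did not. Scd1 (-2.80) and Acadl (2.03) lie farthest to the left and right.

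Promoter windows are shown for 2 members that fell, Fasn and Srebf1, which stand for synthesis, and for 2 that rose, Plin2 and Acadl, which stand for storage and oxidation. Plin2 and Acadl had the largest rises of the 40 tested members, while other members fell further than Fasn and Srebf1. The windows come from RefSeq on build GRCm38.p6, in which 34 of the 41 members had an entry. All 4 genes lie on the minus strand, and each sequence is printed 5′ to 3′ on that strand with 250 bases before and 30 bases after the transcription start. The windows are chr11:120824518-120824797 for Fasn, chr11:60210442-60210721 for Srebf1 (the farthest downstream of 3 listed starts), chr4:86670030-86670309 for Plin2 and chr1:66863280-66863559 for Acadl. Capitals mark CCAAT, a box bound by NF-Y, or CACGTG, the E-box that the SREBP and ChREBP families and others can bind, on either strand.
Fasn: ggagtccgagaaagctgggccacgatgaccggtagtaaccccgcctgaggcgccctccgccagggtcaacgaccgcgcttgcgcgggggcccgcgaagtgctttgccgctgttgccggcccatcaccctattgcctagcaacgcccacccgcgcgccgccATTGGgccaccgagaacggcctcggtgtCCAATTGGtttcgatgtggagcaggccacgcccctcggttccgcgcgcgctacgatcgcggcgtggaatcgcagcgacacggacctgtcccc
Srebf1: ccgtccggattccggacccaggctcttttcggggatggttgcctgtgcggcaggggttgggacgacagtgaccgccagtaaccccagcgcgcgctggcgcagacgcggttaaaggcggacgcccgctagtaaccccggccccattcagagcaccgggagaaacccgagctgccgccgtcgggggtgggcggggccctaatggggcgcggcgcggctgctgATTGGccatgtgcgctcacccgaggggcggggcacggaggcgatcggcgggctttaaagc
Plin2: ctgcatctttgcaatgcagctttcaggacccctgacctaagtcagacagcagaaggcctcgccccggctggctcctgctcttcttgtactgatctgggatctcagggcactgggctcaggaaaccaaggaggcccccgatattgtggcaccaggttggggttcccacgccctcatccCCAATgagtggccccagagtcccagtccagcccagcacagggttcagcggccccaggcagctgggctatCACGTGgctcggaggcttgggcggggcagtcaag
Acadl: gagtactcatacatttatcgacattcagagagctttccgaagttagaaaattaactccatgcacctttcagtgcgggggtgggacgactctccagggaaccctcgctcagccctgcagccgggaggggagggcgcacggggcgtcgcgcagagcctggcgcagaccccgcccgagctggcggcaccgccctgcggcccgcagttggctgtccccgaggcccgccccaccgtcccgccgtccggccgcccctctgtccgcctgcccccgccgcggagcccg
The Fasn window held 3 CCAAT matches, starting at bases -90, -62 and -59 from the start site, the last pair overlapping head to head. The Srebf1 window held 1 CCAAT match at base -30, and the Plin2 window held 1 at base -73 and 1 E-box at base -4. No match to either motif was found in the Acadl window.

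Over the 40 full windows of 300 bases for members, counting each listed start, 17 held CCAAT, or 42.5%, against 37.4% of all 32851 windows in the table. CACGTG was in 4 of the member windows, or 10%, against 7.15% of all windows, and these belonged to Elovl5, Lipe, Mgll and Plin2. The sterol element core TCACNCCAC was in 1 member window, that of Acsl1, or 2.5%, against 1.24% of all windows. A direct repeat of AGGTCA with 1 base between the copies, the element of PPAR receptors, was in none of the member windows and in 0.0396% of all windows. Only these strings were searched, with N as any base, so a window without a match may still hold a variant of the element. The matches are letters in a window and were not read as bound sites.

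Among genes of synthesis, 4 of 5 fell and 1 rose, with a median log2 fold change of -0.59. Of all genes tested, 40.9% were called lower and 41.3% higher. Srebf1 (ENSMUSG00000020538, chr11:60199089-60222581 in GRCm38) encodes SREBP-1, the transcription factor that drives lipogenic genes. It had 125, 124 and 134 CPM (counts over the TMM-scaled library size) in knockout libraries, against 215, 206 and 215 CPM in wild-type libraries. The groups lay well apart, and Srebf1 fell by 0.73 ± 0.04 on the log2 scale (SE, edgeR, adjusted p = 7.83e-16). Fasn (ENSMUSG00000025153, chr11:120805846-120824547), the synthase that makes palmitate, had 445, 439 and 458 CPM in knockout libraries, against 682, 665 and 672 CPM in wild-type libraries. No knockout library came near the wild-type range, and the gene fell by 0.59 ± 0.03 (edgeR, adjusted p = 1.05e-15).

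The acetyl-CoA carboxylases make malonyl-CoA, Acaca in the cytosol and Acacb at the mitochondrial surface, where its product restrains carnitine palmitoyltransferase. Acacb averaged 17.6 ± 1.34 CPM in knockout cells and 29.4 ± 1.87 CPM in wild-type cells (SD, n = 3 each), and fell by 0.74 ± 0.07 on the log2 scale (edgeR, adjusted p = 5.25e-10). Acaca averaged 84.3 ± 1.61 CPM in knockout cells and 73.3 ± 2.48 CPM in wild-type cells, a rise of 0.20 ± 0.04 (edgeR, adjusted p = 1.28e-04). That rise rests on the scaling, since Acaca stood at 0.07 with upper-quartile factors and at -0.0046 on the log2(TPM + 1) scale, neither of which was called. Acaca also shares 30.4% of its 50-base stretches with other annotated transcripts, mostly of the pseudogene Gm5182. Within a library the ratio of the pair needs no scaling. Acacb made up 27.0 ± 1.13% of carboxylase TPM in knockout cells and 41.5 ± 2.15% in wild-type cells.

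Acly, ATP-citrate lyase, which supplies cytosolic acetyl-CoA, was the second most abundant member per length in wild-type cells. It had 316 ± 6.91 CPM in knockout cells and 335 ± 9.53 CPM in wild-type cells, and it fell by only 0.08 ± 0.03 (edgeR, adjusted p = 0.0227). The call was lost without knockout replicate 2 (adjusted p = 0.142), without wild-type replicate 1 (0.0705) and without wild-type replicate 3 (0.0993). On the level scale, the 5 synthesis genes summed to 480 ± 5.05 TPM in knockout cells and to 724 ± 12.9 TPM in wild-type cells.

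Of the genes of desaturation and elongation, 3 of 9 rose, 5 fell and 1 was not called, with a median log2 fold change of -0.18. The shares over all tested genes were 41.3% higher and 40.9% lower. The stearoyl-CoA desaturases place the double bond that turns stearate into oleate. Scd1 (ENSMUSG00000037071, chr19:44394455-44407879) had 22.7, 24.1 and 25.0 CPM in knockout libraries, against 170, 162 and 170 CPM in wild-type libraries. It fell by 2.80 ± 0.05 on the log2 scale, more than any other tested member (edgeR, adjusted p = 2.25e-26). Scd2 (ENSMUSG00000025203, chr19:44293674-44306864) lies in the same cluster and was by level the leading member in wild-type cells. It had 860, 845 and 849 CPM in knockout libraries, against 2221, 2200 and 2194 CPM in wild-type libraries. The knockout libraries lay close together and far below, and the gene fell by 1.37 ± 0.03 (edgeR, adjusted p = 2.795e-24).

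The desaturases fell unequally. Scd1 gave 2.86%, 3.08% and 3.17% of the TPM of Scd1 to Scd4 in knockout libraries, against 7.85%, 7.57% and 7.93% in wild-type libraries. The log2 ratio of Scd1 to Scd2 differed by -1.43, knockout minus wild type, and the groups did not overlap. With 3 libraries against 3, an exact two-sided permutation test of this ratio gave p = 0.1, the smallest it allows. The minor paralogs Scd3 and Scd4 were also lower, at -1.05 ± 0.25 (adjusted p = 4.99e-04) and -1.29 ± 0.34 (adjusted p = 0.00124) by edgeR. Transcripts of Scd1 share 4.56% and those of Scd2 3.97% of their 50-base stretches with other genes.

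Elovl6, which lengthens palmitate to stearate, the substrate of the desaturases, had 45.0, 46.8 and 44.5 CPM in knockout libraries, against 92.1, 88.4 and 87.1 CPM in wild-type libraries. Elovl6 fell by 0.97 ± 0.05 (edgeR, adjusted p = 1.14e-16), with the groups clear of each other. Elovl5, which acts on polyunsaturated chains, fell by 0.18 ± 0.04 (adjusted p = 4.42e-04). Elovl1, which extends very long saturated chains, rose by 0.47 ± 0.05 (adjusted p = 8.47e-09), and Elovl7 rose by 0.51 ± 0.06 (adjusted p = 8.97e-09). With these moves Elovl6 made up 10.5 ± 0.327% of elongase TPM in knockout cells and 20.5 ± 0.677% in wild-type cells, while Elovl1 made up 34.8 ± 1.17% in knockout cells and 24.9 ± 0.539% in wild-type cells.

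The front-end desaturases of polyunsaturated chains changed little. Fads1 fell by 0.23 ± 0.04 (adjusted p = 3.28e-06). Fads2 averaged 177 ± 3.48 CPM in knockout cells and 187 ± 4.13 CPM in wild-type cells and was not called (edgeR, log2 fold change -0.07 ± 0.04, adjusted p = 0.0625). It was called lower with RLE factors, upper-quartile factors, both TPM scales and a filter of 1 CPM in 3 libraries, and also without knockout replicate 3 (adjusted p = 0.032) or wild-type replicate 1 (0.0441). Fads3, from the same gene cluster, was called higher at 0.13 ± 0.04 (adjusted p = 0.00527), but stood at -0.0016 with upper-quartile factors and at -0.077 on the log2(TPM + 1) scale.

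The long-chain acyl-CoA synthetases tie free fatty acids to coenzyme A. Against 41.3% of all tested genes called higher and 40.9% lower, 1 of the 4 members rose, 2 fell and 1 was not called. Acsl5, the most abundant in knockout cells, rose by 0.29 ± 0.03 (edgeR, adjusted p = 1.09e-08) and had 253 ± 3.74 CPM in knockout cells and 208 ± 0.699 CPM in wild-type cells. Acsl1 fell by 0.19 ± 0.05 (adjusted p = 0.00121) and Acsl3, found on droplets, fell by 0.19 ± 0.05 (adjusted p = 6.44e-04). Acsl4, which prefers polyunsaturated chains, had 236, 245 and 231 CPM in knockout libraries and 236, 235 and 229 CPM in wild-type libraries, with overlapping groups. It was not called (log2 fold change 0.03 ± 0.03, adjusted p = 0.501), but it was called lower, at -0.11, with upper-quartile factors and, at -0.18, on both TPM scales. Their summed level was 433 ± 13.5 TPM in knockout cells and 470 ± 2.82 TPM in wild-type cells.

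**Figure D2:**
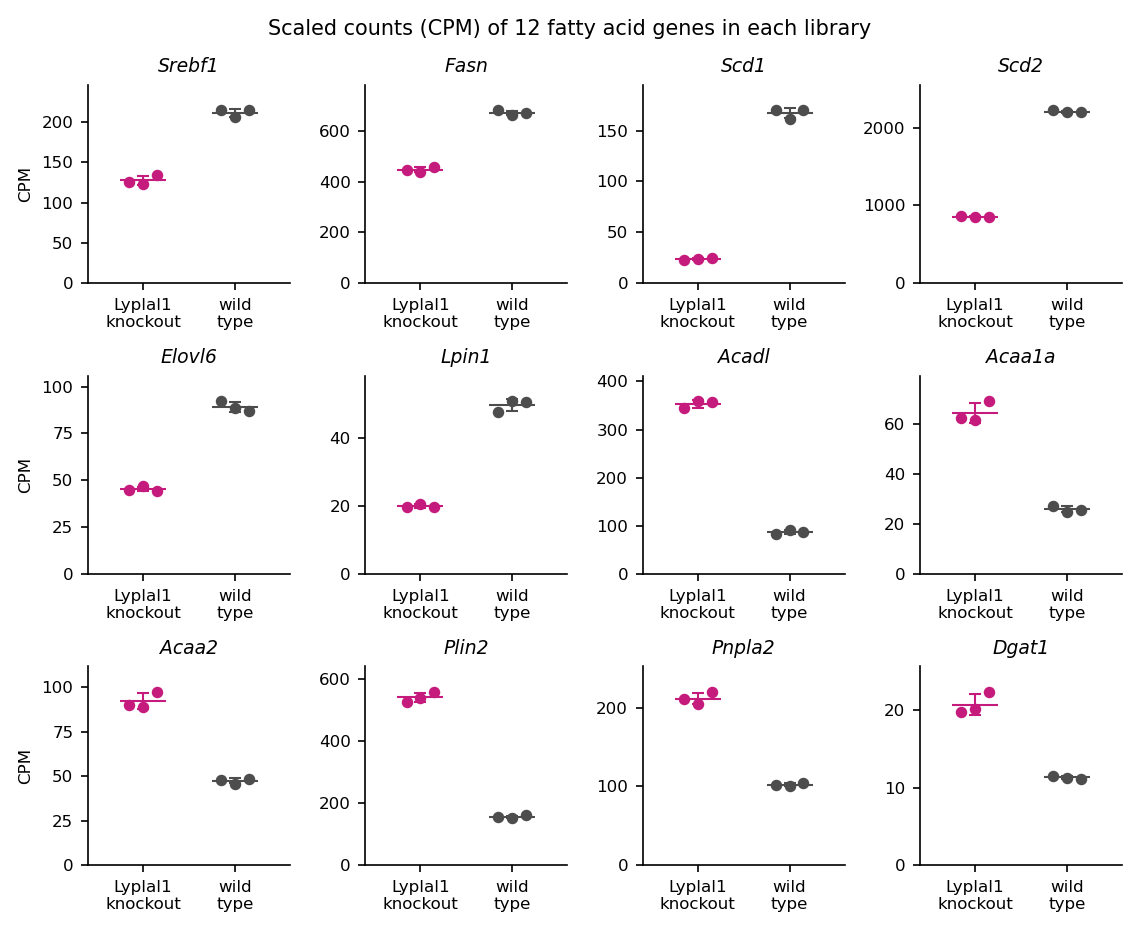
CPM (vertical axes, from 0) of 12 fatty acid genes in each of 3 Lyplal1 knockout libraries (left) and 3 wild-type libraries (right), as points, with the mean and 1 SD. Srebf1, Fasn, Scd1, Scd2, Elovl6 and Lpin1 are lower and Acadl, Acaa1a, Acaa2, Plin2, Pnpla2 and Dgat1 higher in every knockout library than in any wild-type library. Of the 40 tested members 36 had groups that did not overlap, so this separation does not set the 12 apart. The share over all genes was not counted.

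Of the 13 genes of mitochondrial import and oxidation, 9 rose, 1 fell and 3 were not called, with a median log2 fold change of 0.27. The shares over all tested genes were 41.3% higher and 40.9% lower. Only 5 of the 9 rises (Acadl, Acaa1a, Acaa2, Echs1 and Cpt2) held under all scalings, against 4078 of 5382 rises over all genes. With upper-quartile factors or TPM, 3 of the 13 were called lower. Acadl (ENSMUSG00000026003, chr1:66830839-66863277), the long-chain acyl-CoA dehydrogenase, had 344, 359 and 357 CPM in knockout libraries, against 82.5, 90.6 and 86.6 CPM in wild-type libraries. It rose by 2.03 ± 0.04 on the log2 scale (edgeR, adjusted p = 1.58e-25). Per length it was the leading member in knockout cells, at 650 ± 14.6 TPM, against 184 ± 8.67 TPM in wild-type cells, where it ranked 7 among the 41.

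The dehydrogenases differ in the chain length they accept, and they did not move together. Acadm, for medium chains, was the sole member of this role to fall, by 0.85 ± 0.05 (edgeR, adjusted p = 3.03e-14), with 38.3, 41.1 and 35.9 CPM in knockout libraries, against 69.2, 71.2 and 67.8 CPM in wild-type libraries. Acads, for short chains, and Acadvl, for very long chains, had log2 fold changes of 0.02 ± 0.05 (adjusted p = 0.757) and -0.0010 ± 0.05 (adjusted p = 0.987) and overlapping groups. Both were called lower on other scales, Acads at -0.12 with upper-quartile factors and -0.19 on the TPM scales, and Acadvl at -0.13 and -0.21. Acadvl shares 26.9% of its 50-base stretches with its neighbour Dvl2, so part of its counts is uncertain.

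Acadl thus made up 78.0 ± 0.570% of the TPM of these 4 dehydrogenases in knockout cells and 42.9 ± 1.001% in wild-type cells, and Acadm 4.35 ± 0.298% in knockout cells and 17.7 ± 0.514% in wild-type cells. The TPM ratio of Acadl to Acadm was 17.6, 17.03 and 19.4 in knockout libraries, against 2.32, 2.48 and 2.49 in wild-type libraries. This ratio takes no scaling between libraries, and its groups were far apart. The difference of 2.89 on the log2 scale was the widest of 8 ratios tried, and each of the 8 had an exact permutation p of 0.1 (two-sided, 0.1 after Benjamini-Hochberg adjustment), the smallest possible. The pairs were drawn from genes chosen with earlier results of these data known. The test cannot go below 0.1 here, so it adds no support to the ratios.

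Thiolases close each round of oxidation. Acaa2, the mitochondrial one, had 90.4, 88.8 and 97.2 CPM in knockout libraries, against 48.1, 45.8 and 48.4 CPM in wild-type libraries, a rise of 0.96 ± 0.05 (edgeR, adjusted p = 3.26e-16). Acaa1a, which sits in peroxisomes although it is counted with this role, had 62.4, 61.4 and 68.9 CPM in knockout libraries, against 27.3, 24.7 and 25.7 CPM in wild-type libraries, a rise of 1.31 ± 0.06 (adjusted p = 2.97e-17). Both were higher in 3 of 3 knockout libraries than in any wild-type library. Acaa1a shares 12.4% of its 50-base stretches with its paralog Acaa1b, which had 33, 25 and 41 counts in knockout libraries and 21, 9 and 10 counts in wild-type libraries.

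The other steps moved by less. Echs1, the short-chain enoyl-CoA hydratase, rose by 0.53 ± 0.05 (adjusted p = 1.80e-10), and Cpt2, the carnitine palmitoyltransferase of the inner membrane, by 0.40 ± 0.05 (adjusted p = 5.73e-08). Cpt1a, its partner of the outer membrane and the point where malonyl-CoA acts, rose by 0.27 ± 0.04 (adjusted p = 2.71e-06), but was not called on the TPM scales, at 0.06. The same held for Hadha, the alpha subunit of the trifunctional protein, at 0.26 ± 0.03 (adjusted p = 1.77e-07) by edgeR and 0.05 on the TPM scales. Hadh, the hydroxyacyl-CoA dehydrogenase of shorter chains, stood at 0.19 ± 0.04 (adjusted p = 9.28e-05) by edgeR and at -0.021 on the TPM scales. Slc25a20, the carnitine-acylcarnitine carrier, was not called at 0.16 ± 0.08 (adjusted p = 0.0561) and was called without wild-type replicate 2 (adjusted p = 0.0452), and its sign turned on the TPM scales, at -0.046 and -0.049.

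Hadhb, the beta subunit that pairs with Hadha, was listed far lower than its partner, at 7.83 ± 0.461 TPM in knockout cells and 7.33 ± 0.893 TPM in wild-type cells, where Hadha had 107 ± 1.30 TPM in knockout cells and 104 ± 3.08 TPM in wild-type cells. Of its 50-base stretches 19.7% also occur in other transcripts, chiefly of the pseudogene Gm13910, and the effect of the counting on its level was not tested. Its rise of 0.30 ± 0.09 (adjusted p = 0.0045) was not called with upper-quartile factors or TPM, nor without wild-type replicate 2 (adjusted p = 0.05). Summed over the 13 genes, the level was 1519 ± 4.88 TPM in knockout cells and 973 ± 8.05 TPM in wild-type cells, and Acadl supplied most of the gap.

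**Figure D3:**
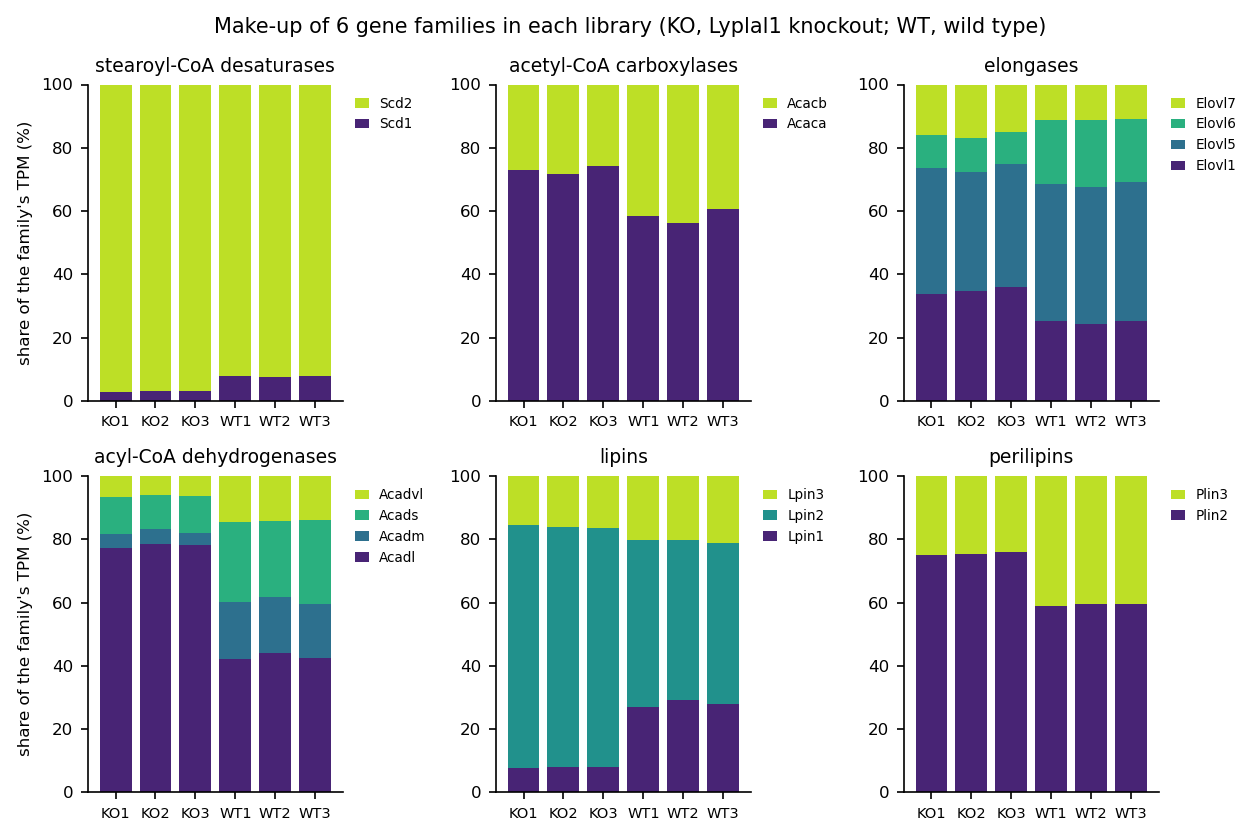
Share of each family's summed TPM (vertical axes, percent) held by each gene in 3 knockout libraries (KO, left) and 3 wild-type libraries (WT, right) for 6 families, leaving out genes under 1% in all libraries. Acadl takes 78.0% of the dehydrogenases in knockout cells and 42.9% in wild-type cells, and Lpin1 takes 7.89% of the lipins in knockout cells and 28.1% in wild-type cells.

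Genes of uptake, storage and release gave 6 rises and 3 falls among 9 tested, with a median log2 fold change of 0.29. Only 4 of the 6 rises (Dgat1, Plin2, Plin3 and Pnpla2) held under all scalings, against 4078 of 5382 rises over all genes. All 3 falls held. The shares over all tested genes were 41.3% higher and 40.9% lower. Plin2 (ENSMUSG00000028494, chr4:86648386-86670060) encodes the perilipin that coats lipid droplets outside fat tissue. It had 526, 537 and 556 CPM in knockout libraries, against 154, 150 and 160 CPM in wild-type libraries. The groups were far apart, and the rise was 1.80 ± 0.04 (edgeR, adjusted p = 2.90e-25). Plin3, a second droplet coat protein, rose by 0.72 ± 0.04 (adjusted p = 5.47e-16), with 188 ± 1.71 CPM in knockout cells and 114 ± 3.69 CPM in wild-type cells. Plin2 made up 75.5 ± 0.342% of perilipin TPM in knockout cells and 59.3 ± 0.299% in wild-type cells.

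Both directions were seen among the enzymes that build triglyceride. Lpin1 (ENSMUSG00000020593, chr12:16535669-16610966), a phosphatidate phosphatase that makes diacylglycerol, had 19.6, 20.5 and 19.7 CPM in knockout libraries, against 47.7, 50.7 and 50.5 CPM in wild-type libraries. It fell by 1.31 ± 0.06 (edgeR, adjusted p = 3.66e-17), and no knockout library reached the lowest wild-type one. Its paralog Lpin2, which is not among the 41, rose by 1.08 ± 0.04 (edgeR, adjusted p = 1.06e-19). Lpin1 therefore gave 7.89 ± 0.163% of lipin TPM in knockout cells and 28.1 ± 1.05% in wild-type cells, and Lpin2 gave 76.1 ± 0.585% in knockout cells and 51.3 ± 1.10% in wild-type cells. The family sum was 93.9 ± 4.10 TPM in knockout cells and 75.8 ± 1.18 TPM in wild-type cells.

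The diacylglycerol acyltransferases carry out the last step to triglyceride. Dgat1 had 19.8, 20.2 and 22.3 CPM in knockout libraries, against 11.5, 11.3 and 11.2 CPM in wild-type libraries, and rose by 0.87 ± 0.08 (edgeR, adjusted p = 1.28e-10). Dgat2 had 9.31, 7.74 and 8.37 CPM in knockout libraries and 5.97, 6.84 and 8.04 CPM in wild-type libraries, so the groups overlapped. Its called rise of 0.29 ± 0.12 (adjusted p = 0.0277) was lost without knockout replicate 1 (adjusted p = 0.132), wild-type replicate 1 (0.181, at a log2 fold change of 0.18) or wild-type replicate 2 (0.0705), with upper-quartile factors, in DESeq2 and on TPM.

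Release of stored fat begins with Pnpla2, the adipose triglyceride lipase. Pnpla2 (ENSMUSG00000025509, chr7:141455198-141460743) had 211, 205 and 220 CPM in knockout libraries, against 102, 100.3 and 104 CPM in wild-type libraries, and rose by 1.05 ± 0.04 (edgeR, adjusted p = 2.45e-19). The enzymes of the later steps went the other way. Lipe, the hormone-sensitive lipase, fell by 0.71 ± 0.08 (adjusted p = 5.42e-09), with 13.8 ± 1.33 CPM in knockout cells and 22.6 ± 0.650 CPM in wild-type cells, and it shares exon positions with 4732471J01Rik. Mgll, the monoglyceride lipase, was scarce, with 3, 8 and 8 counts in knockout libraries and 23, 29 and 19 counts in wild-type libraries, and fell by 1.72 ± 0.35 (adjusted p = 7.33e-05). The log2 TPM ratio of Lipe to Pnpla2 differed by -1.76, knockout minus wild type.

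Fabp5 and Cd36 handle fatty acids on their way into and through the cell. Fabp5, a binding protein of the cytosol, had 11.3, 10.6 and 11.6 CPM in knockout libraries and 10.1, 10.3 and 7.70 CPM in wild-type libraries. Its called rise of 0.25 ± 0.11 (edgeR, adjusted p = 0.0324) rests on single libraries, being lost without knockout replicate 1 (adjusted p = 0.0681), knockout replicate 3 (0.0667) or wild-type replicate 3 (0.285, at a log2 fold change of 0.12), and with upper-quartile factors, DESeq2 and TPM. Cd36, a surface receptor that takes up fatty acids and is strong in endothelium and macrophages, had 2, 2 and 45 counts in knockout libraries and 0 counts in each wild-type library. Against a floor of 3 counts over the wild-type group, the pooled knockout counts were at least 18.3-fold higher. That bound rests on knockout replicate 3, which held 45 of the 49 counts, and 4 counts remained without it. That library also held the most lung and endothelial marker counts given above, whose part in the Cd36 counts was not tested. The summed level of all 10 genes was 1073 ± 9.67 TPM in knockout cells and 536 ± 9.48 TPM in wild-type cells. Plin2 supplied most of the gap, at 567 ± 7.76 TPM in knockout cells and 188 ± 4.87 TPM in wild-type cells, while Lpin1, Lipe and Mgll were lower.

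**Figure D4:**
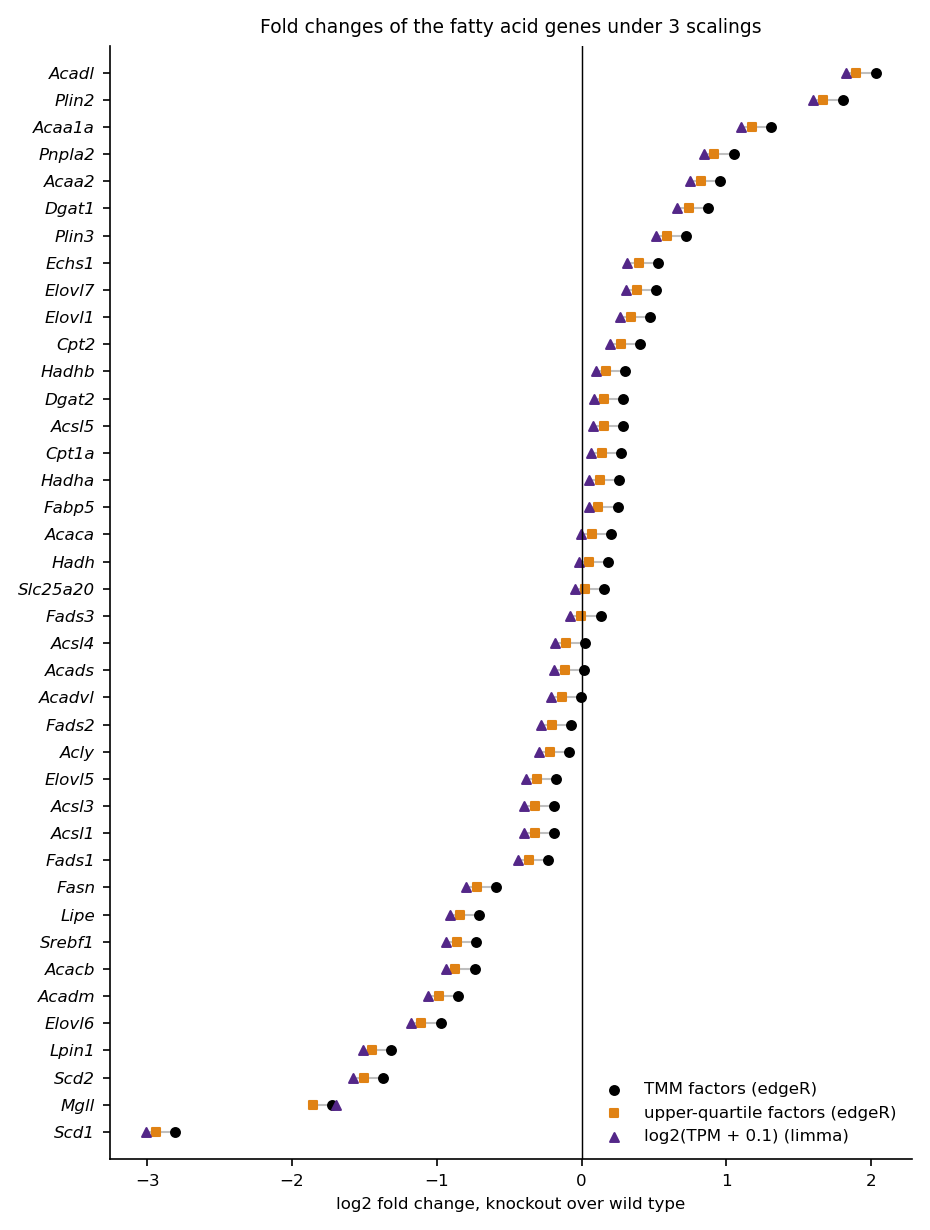
Log2 fold change, knockout over wild type (horizontal axis), of the 40 tested genes under TMM factors, upper-quartile factors and log2(TPM + 0.1), with genes ordered by the TMM value down the page. Most genes shift left together by the same step, so those near 0, such as Fads3, Hadh, Slc25a20, Acsl4 and Acads, change sign, while Scd1, Scd2, Lpin1, Acadl, Plin2 and Pnpla2 stay far from 0.

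Other genes of the same pathways were described from 6 lists, to be read against 41.3% of all tested genes called higher and 40.9% lower. In the list of further synthesis and citrate supply, 8 of 16 tested genes rose, 7 fell and 1 was not called, with a median log2 fold change of 0.21. Me1, the malic enzyme that yields NADPH, rose by 1.46 ± 0.06 (edgeR, adjusted p = 1.001e-18), Slc25a1, the mitochondrial citrate carrier, by 0.79 ± 0.05 and Mid1ip1, which activates acetyl-CoA carboxylase, by 0.81 ± 0.06. Idh1, the cytosolic isocitrate dehydrogenase, fell by 1.19 ± 0.05 (adjusted p = 8.18e-18), Hacd4, a dehydratase of elongation that shares exon positions with Focad, by 1.59 ± 0.07 and Acss2, which makes acetyl-CoA from acetate, by 0.68 ± 0.05. Supply genes were thus found on both sides. Me1 shares 28.3% of its 50-base stretches with other transcripts, chiefly of Gm7049.

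Of the regulators of lipid genes, 6 of 17 tested rose, 8 fell and 3 were not called, with a median of 0.0032. Srebf2, which encodes the sterol-responsive relative of SREBP-1, rose by 0.54 ± 0.03 (edgeR, adjusted p = 4.22e-14), and Scap, which escorts both to the Golgi, rose by 0.90 ± 0.05 (adjusted p = 7.70e-16). Srebf1, on the other hand, was lower. Mlxip, a glucose-sensing factor, rose by 0.33 ± 0.04, and the AMP kinase subunits Prkab1 and Prkaa1 fell by 1.05 ± 0.05 and 0.37 ± 0.05. Esrra, a nuclear receptor of oxidative genes, fell by 0.70 ± 0.06. Ppara had 0 counts in all libraries, and Pparg and Ppargc1a were too low to test.

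In both further lists of oxidation, more genes rose than fell. Of all genes tested, 41.3% were called higher and 40.9% lower. At least 2-fold, 12.4% of all genes rose and 15.6% fell. In further mitochondrial oxidation, 11 of 17 tested genes rose, 3 fell and 3 were not called, with a median of 0.58, and 7 rose at least 2-fold while none fell that far. Of the 11 rises 9 held under all scalings, as did 4078 of the 5382 rises over all genes. Eci1, an enoyl-CoA isomerase for unsaturated chains, rose by 1.56 ± 0.06 (edgeR, adjusted p = 2.20e-19), Hsd17b10, a hydroxyacyl-CoA dehydrogenase, by 1.25 ± 0.04 and Acot9, a mitochondrial thioesterase, by 1.06 ± 0.04. Acat1 of ketone body and isoleucine breakdown fell by 0.47 ± 0.04, Acad10 by 0.30 ± 0.09 and Acadsb of branched chains by 0.16 ± 0.05. In the peroxisomal list, 13 of 18 tested genes rose, 3 fell and 2 were not called, with a median of 0.55, and all 13 rises held under all scalings. Acox2, an oxidase of branched chains and bile acid intermediates, rose by 2.24 ± 0.07 (adjusted p = 2.98e-20) and Ech1, a dienoyl-CoA isomerase, by 0.95 ± 0.05. Hacl1, a lyase of alpha-oxidation, fell by 1.09 ± 0.37, Decr2, a dienoyl-CoA reductase, by 0.44 ± 0.08 and Abcd3, a peroxisomal importer, by 0.26 ± 0.04, and Hacl1 shares 30.1% of its 50-base stretches with other transcripts. Hacl1 was scarce and its groups overlapped, with 8, 8 and 23 counts in knockout libraries, the most in replicate 3, and 33, 19 and 41 counts in wild-type libraries.

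In further activation and transport, 3 of 9 tested genes rose and 3 fell. Slc27a1, a fatty acid transporter, rose by 1.08 ± 0.03 (edgeR, adjusted p = 2.23e-20), Acbd3, an acyl-CoA binding protein of the Golgi, by 0.82 ± 0.04 and Dbi, the acyl-CoA binding protein, by 0.69 ± 0.05. The relatives of Slc27a1, Slc27a3 and Slc27a4, fell by 2.94 ± 0.31 and 0.52 ± 0.06. In further triglyceride storage and release, 7 of 15 tested genes rose and 6 fell. Abhd5, the coactivator of Pnpla2, rose by 1.28 ± 0.06 (adjusted p = 2.22e-17) along with Pnpla2 itself, and Soat1, which esterifies cholesterol for storage, rose by 0.97 ± 0.04. Bscl2, which encodes seipin, a protein of droplet budding, fell by 2.64 ± 0.17 (adjusted p = 9.00e-14, with exon positions shared with Gng3), Abhd6, a monoacylglycerol lipase, by 0.49 ± 0.07 and Gpat4, a glycerol phosphate acyltransferase, by 0.20 ± 0.03. The fat cell droplet protein Plin1 had 0 counts in all libraries, and the 7 adipocyte markers summed to 15, 9 and 8 counts in knockout libraries and to 3, 8 and 2 counts in wild-type libraries. Their part in the rise of Plin2 was not tested.

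**Figure D5:**
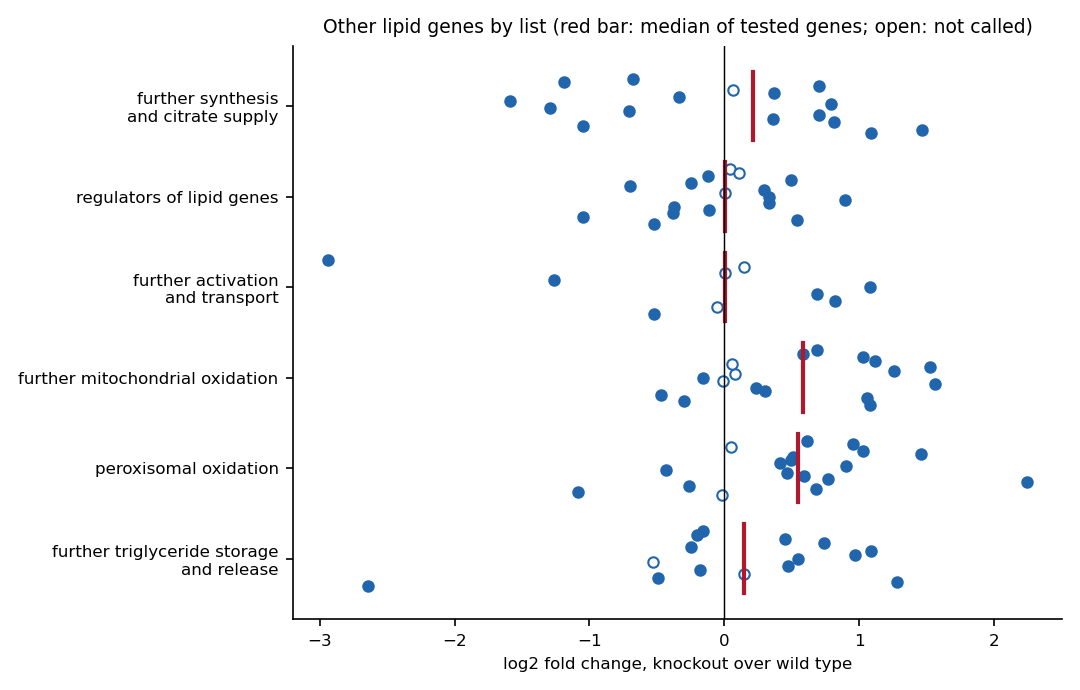
Log2 fold change, knockout over wild type (horizontal axis), of the tested genes of 6 further lipid lists, each point a gene and each red bar the list's median. Filled points passed the adjusted p threshold of 0.05. The medians of mitochondrial (0.58) and peroxisomal (0.55) oxidation lie farthest to the right, and those of regulators and of activation and transport lie near 0.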

How the data were processed

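RNA of 6 libraries, 3 of Lyplal1 knockout and 3 of wild-type 4T-1 cells, was measured; per the labels' protocols it was extracted with Trizol for DNBseq. GRCm38, featureCounts 2.0.1 and STAR 2.7.8a appear in the submitters' processing notes. Annotation, strand setting and treatment of reads with several positions: not given in the sources used here. Whole-number counts and TPM of 55487 genes are the values the authors deposited. The deposited TPM were each count over a gene length common to all libraries, within 1% for 10757 of 10757 genes tried, so TPM add no reads. The 12 deposited files of single libraries held the same values as the tables used. Symbols and positions came from GENCODE M21 (GRCm38), which holds 55227 of the identifiers.

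Of 27543 genes with a count, 13022 passed edgeR's filterByExpr. Counts were tested with edgeR's robust quasi-likelihood F test (two-sided, TMM factors), and p-values were adjusted by Benjamini-Hochberg over all 13022 genes, with a threshold of 0.05; standard errors follow from each fitted change and its F value. Levels between genes and shares within families use TPM. All members are reported, and from each further list up to 3 called genes a direction, by adjusted p. Some genes that this rule takes are not reported here. The members and lists were chosen with earlier results of these data known. Sharing between genes is the percent of a gene's 50-base stretches that occur in transcripts of another gene. Alternatives were RLE and upper-quartile factors, other filters, a test against a 1.2-fold change, a replicate block, DESeq2, limma-voom, limma on TPM in log2 with a pseudocount of 1 or 0.1, and dropping each library in turn. Versions were SciPy 1.17.1 under Python 3.11.15, and DESeq2 1.42.0, limma 3.58.1 and edgeR 4.0.16 under R 4.3.3.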

Additional observations from a re-analysis of the deposited data

How the results depend on the processing

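The main counts of members, 20 higher and 15 lower, were 11 higher and 10 lower in the test against a 1.2-fold change, 14 and 19 with upper-quartile factors and 12 and 19 on both TPM scales, so falls outnumbered rises under the last 3 scalings. Against a 1.2-fold change, 0 synthesis genes, 0 activation genes and 5 oxidation genes were higher, and 3 genes of desaturation and elongation and 0 of activation were lower. Upper-quartile factors and both TPM scales left 0 synthesis genes higher and made 3 oxidation genes lower, and TPM left 5 oxidation genes higher. Over all genes, log2(TPM + 1) called 4115 higher and 6591 lower and log2(TPM + 0.1) 4102 and 6569, where the TMM fit called 5382 and 5329. Signs turned for Acaca (-0.0046 and -0.0048 on log2(TPM + 1) and log2(TPM + 0.1)), Fads3 (-0.0016 with upper-quartile factors, -0.077 and -0.078 on TPM), Acsl4 (-0.11 with upper-quartile factors, -0.18 on TPM), Acads (-0.12 and -0.19), Hadh (-0.021 on TPM) and Slc25a20 (-0.046 and -0.049 on TPM, not called there or under TMM). The replicate numbers did not pair the libraries (correlations of deviations -0.00742, 0.0416 and 0.0132), and with a replicate block 20 members were higher and 16 lower, Fads2 being the added one (adjusted p = 0.0327). Leaving out 1 library gave 18 to 20 members higher and 14 to 16 lower, with 4 to 6 of the storage genes higher. The cause of these shifts beyond scaling was not tested. Depth limits the precision for scarce genes such as Mgll, with 19 counts over the knockout libraries and 71 over the wild-type libraries.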

Other observations

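Decr1, which encodes a mitochondrial dienoyl-CoA reductase for unsaturated chains, had 0, 0 and 1 counts in knockout libraries and 0, 0 and 0 counts in wild-type libraries, and 0% of its 50-base stretches occur in another gene's transcripts. Its peroxisomal relative Decr2 had 15.1 ± 1.05 CPM in knockout cells and 20.4 ± 0.2004 CPM in wild-type cells (SD, n = 3 each).

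Counts of genes encoded in mitochondrial DNA were 0.551%, 0.529% and 0.514% of all counts in knockout libraries and 1.89%, 1.85% and 1.80% in wild-type libraries. The nuclear members of mitochondrial import and oxidation, peroxisomal Acaa1a among them, summed to more TPM in knockout libraries. Most of that gap came from Acadl alone, at 650 ± 14.6 TPM in knockout cells and 184 ± 8.67 TPM in wild-type cells. The relation between this sum and the share of mitochondrial DNA counts was not tested.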
